A study of Mus musculus with 4 samples.

Results

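DNA replication genes in C2C12 cells, a mouse myoblast line that leaves the cell cycle and fuses into myotubes in differentiation medium (DM), were followed through 4 RNA-seq libraries. The set comprised 48 genes chosen by name for their place in DNA replication and S phase, with earlier results of these data known. All 48 were found by symbol in each deposited table, among 24850 named entries in the total RNA tables and 24992 in the polyA tables. The total RNA-seq held 1 library of myoblasts (MB, labelled DM -24 h) and 1 library of myotubes (MT, DM 72 h), both depleted of rRNA. The polyA RNA-seq held 1 library of cells transfected with an siRNA against hnRNPL (si-hnRNPL) and 1 with its control, labelled si-NC, both at DM 48 h. The labels name no genetic change of the line, and give the cell type as myoblasts for all 4 samples although the titles of 3 name MT. With 1 library per condition, no difference could be set against the spread of replicates, and p-values are left out.

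Replication starts from origins that were loaded with the MCM helicase before S phase. Loading requires the origin recognition complex (ORC), Cdc6 and Cdt1, and geminin holds Cdt1 back. Cyclin E with Cdk2 is among the kinases that then promote S-phase entry. Cdc45 and the GINS complex turn the loaded MCM ring into a moving helicase, and the polymerases copy both strands on a sliding clamp of PCNA. Ribonucleotide reductase and thymidylate synthesis supply the polymerases with deoxynucleotides. The products are trimmed by the flap endonuclease Fen1, joined by Lig1 and packed again by CAF-1. Transcription of many of these genes is known to be driven by E2F factors at the passage into S phase and held down by the retinoblastoma family in cells that have stopped dividing.

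The promoters are shown first, and whether their words relate to the changes in level was not tested. No promoter element was used to choose the genes. As many of them are known to be driven by E2F, their share of E2F words is not independent of the choice. RefSeq promoters of GRCm38.p6, from 250 bases before to 50 bases after the annotated start, could be matched to 39 of the 48 genes, with 47 promoters in all. An E2F word was searched on both strands as TTTCCCGC, TTTCGCGC, TTTGCCGC or TTTGGCGC, and words may overlap each other on opposite strands. The capitals below mark the E2F words. Mcm5, Mcm6 and Mcm3 are shown as helicase subunits whose promoters hold more than a single word, and Rfc3 as a clamp loader subunit of the same kind. Pcna, the clamp itself, is shown as the most abundant member, without a word in its window. The promoters lie at chr8:75109259-75109558 on the plus strand (Mcm5), chr1:128359656-128359955 on the minus strand (Mcm6), chr1:20820263-20820562 on the minus strand (Mcm3), chr5:151651159-151651458 on the minus strand (Rfc3) and chr2:132253131-132253430 on the minus strand (Pcna), and are printed 5′ to 3′ along the gene.
Mcm5: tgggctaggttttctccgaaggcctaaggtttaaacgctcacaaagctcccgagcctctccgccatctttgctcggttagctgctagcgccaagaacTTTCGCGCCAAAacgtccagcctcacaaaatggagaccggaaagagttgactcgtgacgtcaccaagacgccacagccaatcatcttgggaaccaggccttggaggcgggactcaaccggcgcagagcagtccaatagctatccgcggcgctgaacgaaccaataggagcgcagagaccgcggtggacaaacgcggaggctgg
Mcm6: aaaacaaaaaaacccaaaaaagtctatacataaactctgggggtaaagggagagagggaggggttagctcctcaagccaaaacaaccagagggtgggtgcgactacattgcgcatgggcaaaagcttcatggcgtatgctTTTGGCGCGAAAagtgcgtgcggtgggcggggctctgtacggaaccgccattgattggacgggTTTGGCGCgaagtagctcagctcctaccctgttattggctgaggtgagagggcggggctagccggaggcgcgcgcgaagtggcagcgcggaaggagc
Mcm3: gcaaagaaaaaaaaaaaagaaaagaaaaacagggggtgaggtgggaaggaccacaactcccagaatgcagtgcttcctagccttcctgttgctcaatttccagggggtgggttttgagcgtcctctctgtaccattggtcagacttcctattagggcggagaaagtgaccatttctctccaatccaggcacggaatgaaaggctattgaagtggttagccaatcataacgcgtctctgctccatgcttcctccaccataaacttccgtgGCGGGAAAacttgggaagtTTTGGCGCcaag
Rfc3: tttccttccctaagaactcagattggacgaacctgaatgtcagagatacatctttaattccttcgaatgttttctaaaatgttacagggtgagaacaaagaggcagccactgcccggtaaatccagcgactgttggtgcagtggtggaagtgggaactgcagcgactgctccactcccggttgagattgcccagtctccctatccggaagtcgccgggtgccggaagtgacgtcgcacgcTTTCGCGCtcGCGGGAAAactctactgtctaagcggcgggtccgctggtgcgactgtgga
Pcna: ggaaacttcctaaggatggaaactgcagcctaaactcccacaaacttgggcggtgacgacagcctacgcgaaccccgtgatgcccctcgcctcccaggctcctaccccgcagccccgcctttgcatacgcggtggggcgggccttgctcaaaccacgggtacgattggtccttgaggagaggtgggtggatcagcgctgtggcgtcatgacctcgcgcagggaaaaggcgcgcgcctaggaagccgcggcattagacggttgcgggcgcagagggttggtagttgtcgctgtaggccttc

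In Mcm5 both words overlapped in a single stretch that began 153 bases before the start. In Mcm6 a pair of words overlapped from 110 bases before the start and a further word began 47 bases before it. The words of Mcm3 lay behind the start, beginning at positions 19 and 38, and those of Rfc3 began 10 bases before the start and at the start itself (position 0).

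Of the 47 member promoters, 16 held an E2F word (34.0%), each in a different gene. The word was present in 2.26% of all 32851 promoters of the RefSeq table and in 4.0% of the 11009 promoters of genes with a mean of at least 1 FPKM over MB and MT. Counted by gene, 16 of the 39 matched members had a word (41.0%), against 4.86% of the genes at that level and 13 of 65 matched genes (20%) of a list of 79 other replication genes. The members with a word were Cdc6, Cdk2, Cdt1, Dnmt1, Gins3, Lig1, Mcm3, Mcm5, Mcm6, Mcm7, Orc1, Pola1, Pold1, Pole2, Rfc3 and Uhrf1. The CCAAT box, searched as CCAAT on both strands, stood in 28 of the 47 promoters (59.6%), against 37.4% of all promoters and 37.8% of those of expressed genes, the 11009 above. The CHR element (TTTGAA or TTCGAA) stood in 17.0%, below the share of all promoters (19.2%) and above that of expressed genes (13.6%). The TATA box (TATAAA) stood in 6.38%, against 13.6% of all and 6.97% of expressed genes, and the myogenic E-box (CAGCTG) in 12.8%, against 16.3% and 15.3%. Member promoters were richer in G and C (median 61.3%) than all promoters (52.7%), and the part of base composition in these shares was not tested. A match describes letters in a window and shows no binding. Among the 39 matched members, the 16 with an E2F word had a median log2 change of -2.14 in MT and those without of -1.96. For the CCAAT box the split ran the other way, with -1.88 in members with it and -2.31 in those without. The E-box gave -1.90 with and -2.18 without, the CHR element -2.09 and -2.10, and the TATA box -2.26 and -2.09.

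The values are FPKM, fragments scaled by transcript length and library size, so levels can be compared between genes. Each FPKM was deposited with a 95% interval of the library's own counting and assignment error, whose width corresponded to between 183.0 and 11399 fragments per member in MT, the lower of the total RNA libraries, and to between 58.2 and 3900 in si-hnRNPL, the lower of the polyA libraries. Changes were computed as log2((FPKM + 1) ratio), and a gene is called lower or higher at an absolute value of 0.58, a fold of 1.5. The differentiation genes followed the labels. Myog, a transcription factor of terminal differentiation, had 0.695 FPKM in MB, 251 in MT, 175 in si-NC and 249 in si-hnRNPL, and Myod1 was present throughout with 36.6, 65.9, 43.6 and 49.0 FPKM. The defining markers of other lineages were at or near 0, with Ptprc, Pecam1, Cdh5, Epcam, Krt8 and Adipoq at 0 to 0.112 FPKM in the 4 libraries, while Cd68 reached 1.13 and Fabp4 0.251. Of the genes listed as marks of fibroblasts or reserve cells, Pdgfra lay between 2.14 and 4.91 FPKM and Ly6a between 54.3 and 656. Pax7, from the same list, had 4.85 FPKM in MB, 7.42 in MT, 1.065 in si-NC and 1.02 in si-hnRNPL. Hnrnpl, the target of the siRNA, had 111 FPKM in MB, 62.97 in MT, 95.1 (92.7 to 97.5) with si-NC and 85.9 (83.1 to 88.7) with si-hnRNPL. Its mRNA in the library labelled si-hnRNPL was thus at 90.4% of the control, with intervals apart, and the fold of 1.5 was not reached. The study examined the knockdown by Western blot, a measure of protein that these RNA values do not address.

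In MT the DNA replication genes lay far below their level in MB. All 48 had a log2 change below 0, as did 62.0% of the named genes, and 47 passed the fold of 1.5, where 28.9% of the 11486 named genes with a mean of at least 1 FPKM did so in that direction. No member was higher by that fold (0 of 48), against a background of 14.6%. The members were chosen with earlier results known, so these counts, and those for si-hnRNPL below, only describe the set. The median log2 change of the members was -2.19 (95% order-statistic interval -2.44 to -1.90), and that of the named genes -0.21. The median member level fell from 40.5 FPKM in MB to 8.72 in MT, and the summed level from 2518 to 598 FPKM, which is 23.8%. In MB the median member stood above 81.0% of the named genes with at least 1 FPKM, and in MT above 41.6%. Individual members kept between 8.04% and 68.7% of their MB level, 24 of them less than 20% and 4 more than 40%. The interval of the log2 change lay wholly below 0 for all 48, which also held for 56.6% of the named genes. In bulk RNA a smaller share of cycling cells and a lower level per cell cannot be told apart.

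**Figure D1:**
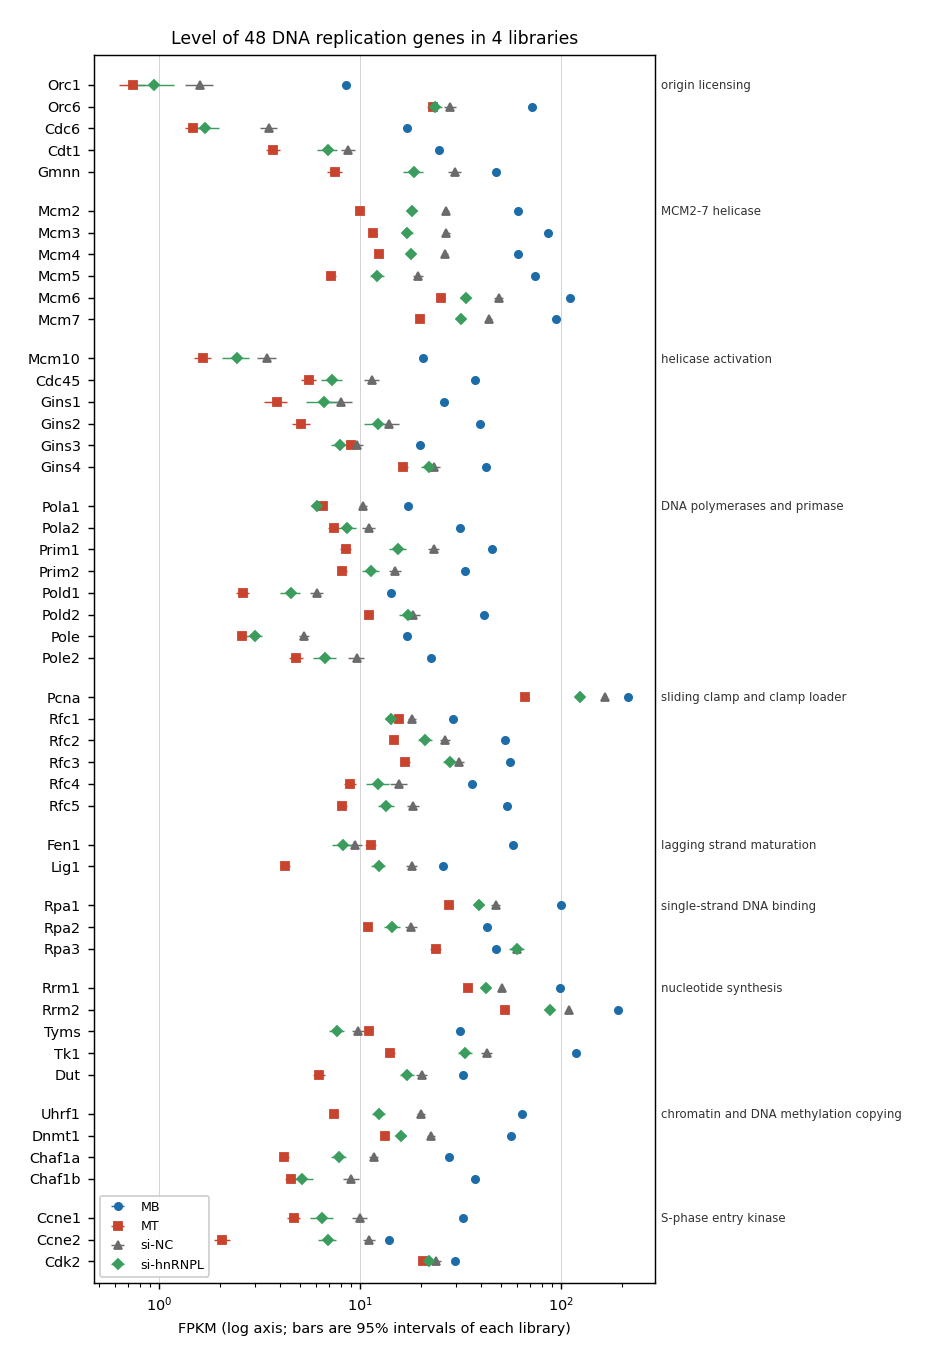
FPKM of the 48 DNA replication genes on a log axis, in order of role, with 1 point per library (MB circles, MT squares, si-NC triangles, si-hnRNPL diamonds) and the 95% interval of each library as a bar. MB is the highest point of every gene but Rpa3, and MT is the lowest of most genes.

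The 5 licensing factors all fell, with a median log2 change of -2.46 in MT. Cdc6, which loads the helicase together with Cdt1 (chromosome 11, 98769203 to 98785256 in mm9), had 17.2 FPKM (95% interval 16.8 to 17.6) in MB, 1.47 (1.35 to 1.60) in MT, 3.51 in si-NC and 1.70 in si-hnRNPL. It was highest in MB by a wide margin. The intervals of si-hnRNPL and MT overlapped, though those libraries differ in preparation and time. Its log2 change was -2.88 (-2.96 to -2.80) in MT and -0.74 (-0.93 to -0.56) in si-hnRNPL, the largest fall of any member in that comparison. Orc1, the ORC subunit whose level is known to follow the cell cycle, had 8.46, 0.739, 1.60 and 0.936 FPKM in MB, MT, si-NC and si-hnRNPL. Orc1 was the scarcest member in every library, and the pseudocount makes its log2 change of -2.44 in MT an understatement. Orc6 had 71.3, 23.0, 28.0 and 23.5 FPKM, so it kept 32.3% of its MB level where Orc1 kept 8.74%. Cdt1 (24.8 FPKM in MB, 3.69 in MT) and its inhibitor Gmnn (47.6 and 7.49) had log2 changes of -2.46 and -2.52. The ratio of Cdt1 to Gmnn was therefore close in both, 0.521 in MB and 0.492 in MT, although the level of each was far lower in MT. The other ORC subunits, outside the set, were split. Orc2 and Orc5 fell, with log2 changes of -1.10 and -1.08 in MT, while Orc3 and Orc4, with 0.14 and 0.13, did not reach the fold in either direction.

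The subunits of the MCM2-7 helicase, which form a single ring, fell in unequal measure. Mcm5 (chromosome 8, 77633408 to 77652338) had 74.5 FPKM (73.3 to 75.8) in MB, 7.17 (6.77 to 7.56) in MT, 19.5 in si-NC and 12.1 in si-hnRNPL. Its log2 change of -3.21 (-3.28 to -3.14) in MT was the largest of all members, and only 29 of the 11486 named genes had a lower value. Mcm6 (chromosome 1, 130228152 to 130256282) had 111, 25.1, 49.0 and 33.5 FPKM in the same order, and a log2 change of -2.10 (-2.14 to -2.06) in MT. Mcm6 was the highest and Mcm7 the next of these subunits in all 4 libraries, though their intervals overlapped in si-hnRNPL. Mcm5 stood above Mcm2 and Mcm4 in MB and was the lowest of the ring in the other libraries. The highest subunit exceeded the lowest 1.81-fold in MB, 3.5-fold in MT, and 2.51-fold and 2.76-fold in the si-NC and si-hnRNPL libraries. Mcm2 and Mcm4, with 61.2 FPKM each, were the lowest in MB and their intervals overlapped there, and in MT they had 9.98 and 12.4 FPKM, with intervals apart. Mcm3 (86.2 and 11.6 FPKM) had a log2 change of -2.79, and Mcm7 (93.9 and 19.9) of -2.18.

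The factors that activate the helicase split by subunit. Mcm10 (chromosome 2, 4911770 to 4933837) had 20.5, 1.65, 3.45 and 2.43 FPKM in MB, MT, si-NC and si-hnRNPL and kept 8.04% of its MB level in MT, the smallest share of any member. Cdc45 had 37.3, 5.54, 11.4 and 7.25 FPKM, with a log2 change of -2.55 in MT. Among the GINS subunits, Gins1 (26.2 FPKM in MB and 3.83 in MT) and Gins2 (39.6 and 5.09) had log2 changes of -2.49 and -2.74, whereas Gins3 (19.9 and 9.03) and Gins4 (42.3 and 16.4) had -1.06 and -1.32. The intervals of the first pair lay apart from those of the second. The spread among the GINS subunits was 2.13-fold in MB and 4.28-fold in MT. Gins2 shares 67.3% of its exon bases with Gse1 on the opposite strand, and the sources used here do not say that the polyA libraries kept strand, so its polyA values are uncertain. Of the 13 members that share exon bases with another gene, 5 do so over more than 10% of their exons. Rfc4, Rfc5, Fen1 and Ccne2 are the others, and the same limit holds for their polyA values.

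The polymerases and the primase, which lay down primers and extend them, fell as a group, with 8 of 8 past the fold and log2 changes from -2.34 to -1.28. Prim1, the catalytic primase subunit, had 45.4 FPKM in MB, 8.50 in MT, 23.2 in si-NC and 15.4 in si-hnRNPL. Pole, the catalytic subunit of the leading-strand polymerase, had 17.1, 2.59, 5.27 and 2.98 FPKM and the largest log2 change of the group in MT (-2.34). Pola1, the catalytic subunit of polymerase alpha, had 17.4, 6.55, 10.3 and 6.12 FPKM and the smallest (-1.28, interval -1.34 to -1.23). In MT the subunits of polymerase alpha and primase lay within 1.30-fold of each other (6.55 to 8.50 FPKM), against 2.61-fold in MB. This narrowing went the other way from the helicase, where the spread grew. Pola2 and Prim2 had log2 changes of -1.96 and -1.90, Pold1 and Pold2 of -2.07 and -1.82, and Pole2 of -2.02. Outside the set, Pold3 and Pole3 had -1.56 and -1.18, while Pold4 and Pole4 fell less, with -0.58 and -0.61.

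Pcna (chromosome 2, 132075022 to 132078916) was the most abundant member in every library, with 216 FPKM (213 to 220) in MB, 65.97 (64.3 to 67.6) in MT, 166 (161 to 170) in the control and 124 (119 to 129) with si-hnRNPL. Its log2 change was -1.70 (-1.74 to -1.66) in MT, a smaller fall than that of most members. Pseudogenes named Pcna-ps1 and Pcna-ps2 are annotated, and how fragments were divided among them is not known. The clamp loader subunits ranged from Rfc1, the large subunit, with 29.1 FPKM in MB and 15.6 in MT (-0.86), to Rfc5 with 53.7 and 8.14 (-2.58). Rfc2, Rfc3 and Rfc4 lay between, at -1.77, -1.68 and -1.91. The ratio of Rfc5 to Rfc1 was 1.85 in MB and 0.522 in MT. Fen1, the flap endonuclease, had 57.9, 11.3, 9.39 and 8.16 FPKM and Lig1, the replicative ligase, 25.7, 4.21, 18.02 and 12.3, with log2 changes of -2.26 and -2.36 in MT. The annotation places 78.8% of the exon bases of Fen1 under Gm10143 on the opposite strand, so its polyA values are uncertain. Rpa1 and Rpa2, which cover single-stranded DNA, had 99.8 and 42.9 FPKM in MB and 27.5 and 10.9 in MT, with log2 changes of -1.82 and -1.88. Rpa3 had 47.6 FPKM in MB, 23.7 in MT and 60.3 in both polyA libraries, and was the only member higher in the polyA libraries than in MB. Its log2 change was -0.97 in MT.

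Among the genes of deoxynucleotide supply, Rrm2, the cell-cycle-regulated subunit of ribonucleotide reductase, had 191 FPKM in MB, 52.6 in MT, 110 in si-NC and 87.7 in si-hnRNPL, and Rrm1 had 98.6, 34.2, 50.9 and 42.4. Their log2 changes in MT were -1.84 and -1.50. Tk1, the cytosolic thymidine kinase (chromosome 11, 117676833 to 117687328), had 118 (116 to 121), 14.0 (13.2 to 14.8), 42.7 and 33.3 FPKM and fell by 2.99 on the log2 scale in MT. Tyms and Dut had log2 changes of -1.43 and -2.20. Uhrf1, which recruits Dnmt1 to freshly copied DNA, had 64.1, 7.39, 20.2 and 12.3 FPKM and a log2 change of -2.96, and Dnmt1 itself, the maintenance methyltransferase, had 56.6, 13.3, 22.4 and 16.0 FPKM and -2.01. Chaf1a and Chaf1b, subunits of the histone chaperone CAF-1, had log2 changes of -2.46 and -2.79.

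Cdk2 was the sole member that did not reach the fold. It had 29.7 FPKM (28.9 to 30.5) in MB, 20.4 (19.7 to 21.2) in MT, 23.8 in si-NC and 21.9 in si-hnRNPL, a log2 change of -0.52 (-0.58 to -0.46) in MT. Its cyclin partners Ccne1 (32.5 FPKM in MB, 4.67 in MT) and Ccne2 (13.95 and 2.06) had log2 changes of -2.56 and -2.29. For each FPKM of Cdk2 there was 1.09 FPKM of Ccne1 in MB and 0.229 in MT.

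**Figure D2:**
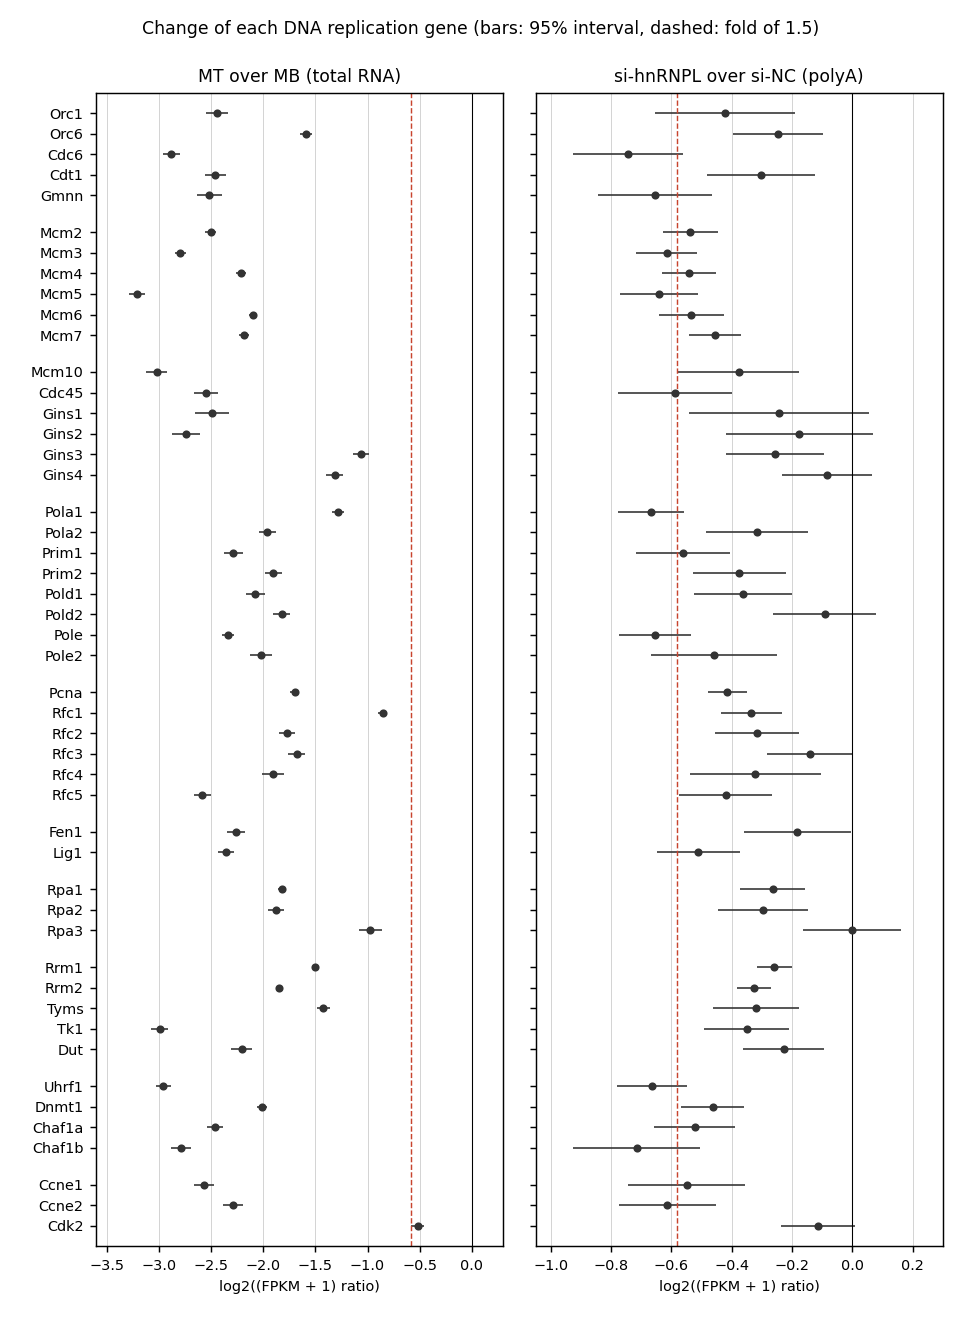
The log2((FPKM + 1) ratio) of each member with its 95% interval, for MT over MB (left) and si-hnRNPL over si-NC (right, on a narrower axis), where the dashed line is a fold of 1.5. On the left all points but Cdk2 lie beyond the dashed line, and on the right 10 of 48 do.

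Related genes outside the set, chosen after their values were seen, did not all share the fall. Rrm2b, the alternative ribonucleotide reductase subunit used outside S phase, had 3.91 FPKM in MB, 7.32 in MT, 9.46 in si-NC and 8.97 in si-hnRNPL, a log2 change of 0.76 in MT. Rrm2 exceeded it 48.97 times in MB and 7.18 times in MT. Tk2, the mitochondrial thymidine kinase, had 5.19 and 6.15 FPKM in MB and MT, so the ratio of Tk1 to Tk2 went from 22.8 to 2.28. Lig3, the ligase of repair and mitochondria, had 16.6 and 12.7 FPKM, and the ratio of Lig1 to Lig3 went from 1.55 to 0.331. The ratio of Orc1 to Orc4 went from 0.498 to 0.0395.

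**Figure D3:**
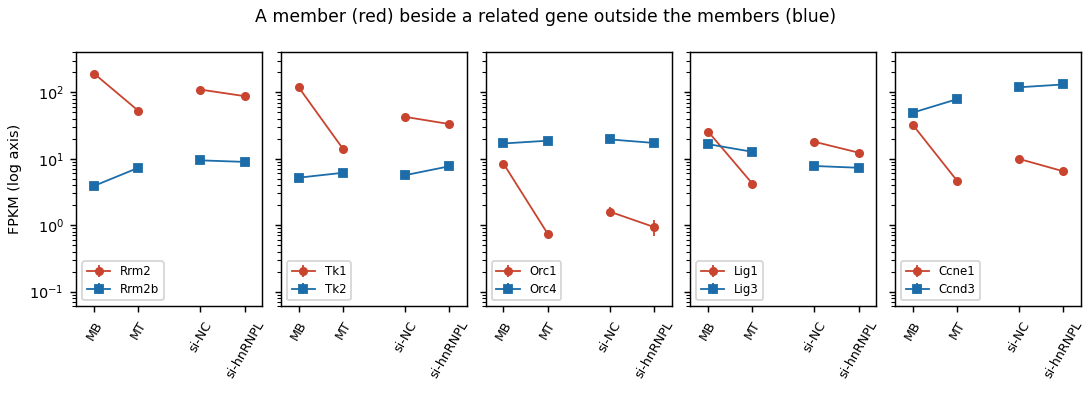
FPKM (log axis) of a member (red circles) and of a related gene outside the set (blue squares) in MB, MT, si-NC and si-hnRNPL, with 95% intervals as bars that are mostly smaller than the points. The member falls from MB to MT in every panel, while Rrm2b, Tk2, Orc4 and Ccnd3 are higher in MT than in MB and Lig3 is lower by less than its partner Lig1. The related cyclins Ccnd1 and Ccnd2, not shown, were lower in MT than in MB.

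The 79 other genes of replication and S-phase control were described in the same way. In MT 57 were lower and 6 higher by the fold of 1.5, against backgrounds of 28.9% and 14.6% of the named genes. Their median log2 change was -1.14. One estimate of the list, Dnmt3a in MT, was marked as failed in the deposited table. The largest falls were those of Asf1b, a histone chaperone (111 FPKM in MB and 12.6 in MT, -3.04), Ccna2, cyclin A (108 and 15.0, -2.77), and Fbxo5, an inhibitor of the anaphase-promoting complex (40.1 and 5.27, -2.71). The 6 that were higher were Cdkn1a, the p21 inhibitor of cyclin-dependent kinases (35.3 and 135 FPKM, 1.91), Cdkn1c (1.96 and 7.93, 1.60), Rb1 (8.31 and 21.6, 1.28), Rrm2b (0.76), Ccnd3 (49.5 and 79.01, 0.66) and Rbl2 (15.1 and 23.8, 0.62). Cdkn1a, Cdkn1c, Rb1 and Rbl2 are known as brakes on S-phase entry, but other brakes in the list fell, namely Rbl1 (16.5 and 4.89 FPKM, -1.58) and Cdkn2c (29.4 and 15.8, -0.85), and Cdkn1b (0.38) did not reach the fold. The cyclins related to Ccnd3 fell, Ccnd1 (113 and 18.8 FPKM) by -2.53 and Ccnd2 (3.78 and 1.96) by -0.69 on the log2 scale.

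The library labelled si-hnRNPL was compared with si-NC, although its Hnrnpl mRNA was at 90.4% of the control. The members were again all below 0 in si-hnRNPL relative to si-NC, 48 of 48, where 52.0% of the 11234 named genes with a mean of at least 1 FPKM were. The changes were small. The median log2 change was -0.38 (95% order-statistic interval -0.51 to -0.32), that of the named genes -0.01, and the median member kept 74.5% of its si-NC level. By the fold of 1.5, 10 members were lower and 0 were higher, against backgrounds of 0.863% and 1.36%. The 97 named genes that were lower by that fold thus held 10 members, or 10.3%, while members made up 0.427% of the genes considered. The interval of the log2 change lay wholly below 0 for 41 members, against 26.6% of the named genes. The summed member level was 1203 FPKM in the control and 925 FPKM with si-hnRNPL, or 77.0%.

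The 10 fell in 6 of the 10 roles, and none was a clamp, lagging strand maturation, single-strand binding or nucleotide synthesis gene. They were Cdc6 (-0.74), Gmnn (-0.65), Mcm3 (-0.62), Mcm5 (-0.64), Cdc45 (-0.59), Pola1 (-0.67), Pole (-0.65), Uhrf1 (-0.67), Chaf1b (-0.72) and Ccne2 (-0.61). Chaf1b had 9.03 FPKM in the control and 5.11 with si-hnRNPL. Uhrf1 had 20.2 and 12.3 FPKM, with an interval of the log2 change from -0.78 to -0.55. Gmnn had 29.6 and 18.5 FPKM, a log2 change of -0.65 (-0.84 to -0.47), whereas Cdt1 had 8.72 and 6.88 (-0.30, -0.48 to -0.12). The remaining MCM2-7 subunits, Mcm2, Mcm4, Mcm6 and Mcm7, had values from -0.54 to -0.46, just short of the fold. At the other end stood Rpa3 (-0.00, interval -0.16 to 0.16), Gins4 (-0.08), Pold2 (-0.09) and Cdk2 (-0.11), whose intervals reached beyond 0, as did those of Gins1, Gins2 and Rfc3. By role, the medians ran from -0.25 for the helicase-activating factors and -0.26 for the single-strand binding proteins to -0.54 for MCM2-7, -0.55 for cyclin E and Cdk2 and -0.59 for the chromatin and DNA methylation genes.

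**Figure D4:**
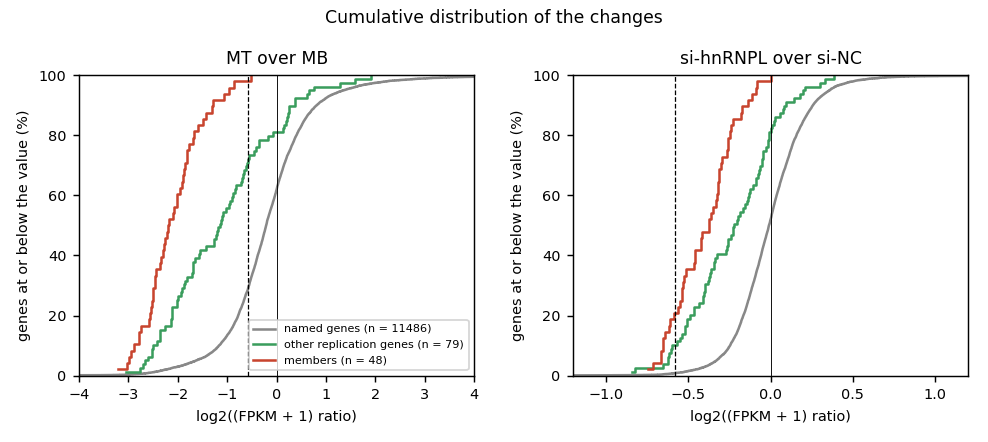
Cumulative percentage of genes at or below each log2((FPKM + 1) ratio), for the members (red), the list of 79 other replication genes (green) and the named genes with a mean of at least 1 FPKM (grey), in both comparisons. The members' curve lies to the left of the others over most of its length, with member medians of -2.19 (left panel) and -0.38 (right panel). The dashed line is a fold of 1.5.

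Measures of the libraries moved with this comparison. Across 9954 protein-coding genes with a mean of at least 1 FPKM, the log2 change went down with exon length (Spearman rho -0.40) and up with the GC content of exons (0.42). Genes are not replicates of each other, and both values are descriptions. The 48 members had a median exon length of 3433 bases, against 3789 for those genes. The 24 longer members had a median of -0.46 and the 24 shorter ones of -0.32, while protein-coding genes in the same ranges of length had -0.06 and 0.05. After the median change in 20 bins of exon length was subtracted, the member median was -0.41, with all 48 below 0 and 9 past the fold, where 0.745% of the genes were. After exon length and GC content, an alternative chosen after seeing the data, it was -0.40 with 11 past the fold (background 0.604%). The si-hnRNPL library had fewer implied fragments over all entries, 1.46e+07 against 2.13e+07 in the control. Differentiation genes differed as well, with Myog at 0.51, Myh3 at 0.36, Ckm at 0.71 and Acta1 at 0.61 on the log2 scale, and Cdkn1a at 0.33. The part of these in the members' values was not tested.

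Of the 79 other replication genes, 8 were lower and 0 higher by the fold in si-hnRNPL, against backgrounds of 0.863% and 1.36%. Their median log2 change was -0.22. The largest falls were those of Hells, a chromatin remodeller (14.4 FPKM in the control and 7.61 with si-hnRNPL, -0.84), Dck, the deoxycytidine kinase (18.04 and 9.75, -0.83), and Donson, a replisome assembly factor (6.62 and 3.85, -0.65). The largest positive values were those of Tk2 (0.39), Cdkn1a (0.33) and Nme2 (0.30), which did not reach the fold.

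Gene by gene, the 2 comparisons share no library and can be set side by side. Across the 48 members the log2 change in MT and that in si-hnRNPL had a Pearson r of 0.58 and a Spearman rho of 0.57, and across the 79 other replication genes 0.70 and 0.74. Across 10578 named genes with a mean of at least 1 FPKM in both comparisons the values were 0.19 and 0.15. These describe genes that share libraries, depth and gene structure, and are given without a p-value. Mcm5, Cdc6, Uhrf1 and Chaf1b were among the lowest in both comparisons, and Cdk2, Rpa3 and Gins4 near the top of both. Pola1, Tk1 and Gins2 were among those that stood off this order. Pola1 had a small fall in MT (-1.28) but one of the largest in si-hnRNPL (-0.67), and Tk1 a large fall in MT (-2.99) beside -0.35 in si-hnRNPL. Gins2, whose polyA values are uncertain, had -2.74 in MT beside -0.18 in si-hnRNPL.

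**Figure D5:**
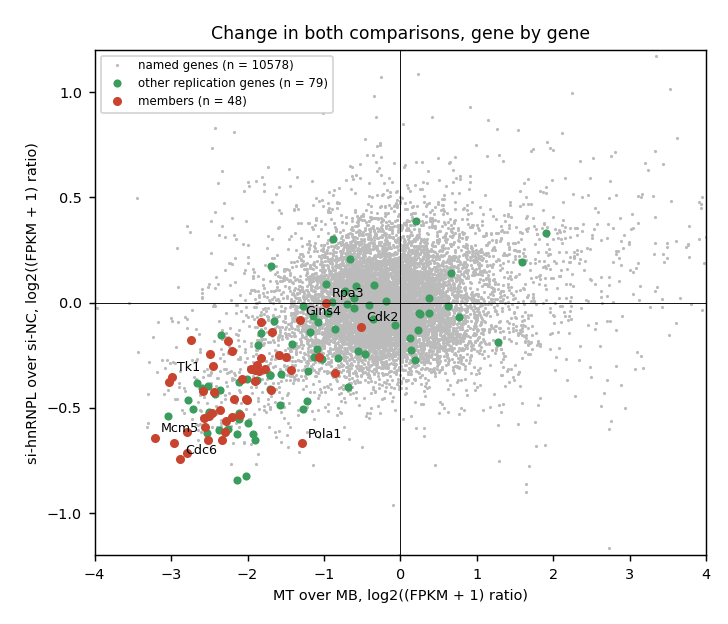
The log2((FPKM + 1) ratio) of MT over MB (horizontal) against that of si-hnRNPL over si-NC (vertical) for 10578 named genes (grey, of which 86 lie outside the axes), the 79 other replication genes (green) and the 48 members (red). The members occupy the lower left, with Pearson r of 0.58 among them.

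The polyA libraries at DM 48 h can only be placed loosely between MB and MT, as library preparation and time both differ and cannot be told apart. In FPKM, 45 of the 48 members had a level in si-NC between those of MT and MB. The median member level was 18.2 FPKM in the control and 12.9 with si-hnRNPL, beside 40.5 in MB and 8.72 in MT. In si-hnRNPL 43 members were still above their level in MT. Fen1, whose polyA values are uncertain, and Tyms were the members lower in si-NC (9.39 and 9.78 FPKM) than in MT (11.3 and 11.1).

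The total RNA tables also list transcript units assembled from the reads, and 10 of these lay wholly inside the loci of 6 members. The 4 with a mean of at least 1 FPKM were in Cdt1, Gins3 and Chaf1a. The share of all assembled units that were lower was not computed, so their values are given as a description. The unit in Cdt1 (chromosome 8, 125092413 to 125092723) had 4.54 FPKM in MB and 0.373 in MT, and a pair of units in Chaf1a had 5.49 and 4.15 FPKM in MB and 0.778 and 0.598 in MT. The unit in Gins3 had 1.92 FPKM in MB and 1.55 in MT.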

How the data were processed

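Total RNA-seq of MB and MT (rRNA-depleted, strand-specific) and polyA RNA-seq of si-NC and si-hnRNPL cells were used, 1 library each. Per the labels and the study's methods, reads under 36 bp were dropped after trimming and alignment to mm9 was by TopHat 2.0.13. The authors then used Cufflinks 2.1.1, whose FPKM values they deposited together with 95% intervals. No counts were used, so no count test was run. Loci are given from a start counted from 1.

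Rows were matched by gene symbol, and libraries were joined on symbol and locus. Changes were computed as log2((FPKM + 1) ratio). The interval of a change came from the half-widths of both intervals on the log2 scale, added in quadrature. Implied fragments are (2 x FPKM / (upper bound - FPKM)) squared. Intervals cover error within a library only. Backgrounds used named genes with a mean of at least 1 FPKM over both libraries, a filter that all 48 members passed. Exon length, GC content and gene type came from the GENCODE annotation of mm9, and promoters from RefSeq (GRCm38.p6). The members and lists were chosen with earlier results of these data known. Within each role the text names the most abundant member in MB and those with the largest changes, and of the other lists the 3 largest changes each way and those in the rarer direction. Alternatives covered pseudocount, fold, filter, scaling, summing by symbol, intervals and gene structure.

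The software was pandas 2.3.3, numpy 2.4.6 and scipy 1.17.1 under Python 3.11.15, and plots were drawn by matplotlib 3.10.9. On simulated data with 200 genes doubled, among 8577 genes for MT over MB and 8693 for si-hnRNPL over si-NC, 100% were recovered in both. The simulated intervals covered the true change for 95.1% and 95.7% of genes. Counts were drawn at the depth of MB or si-NC for well-covered genes only, and the intervals were built from the same draws. The simulation thus checks the calculation, and not the deposited intervals, the scarce members or the lower depth of si-hnRNPL. GRO-seq and CLIP-seq data were not analysed here.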

Additional observations from a re-analysis of the deposited data

How the results depend on the processing

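All 48 members stayed below 0 in MT under every alternative, and in si-hnRNPL under every alternative but centring on the median gene, where Rpa3 was at 0.01. In MT between 45 and 48 members were counted lower under each setting and 0 higher. Rescaling MT and MB to the same sum over named genes other than small RNA genes, a shift of 0.37 on the log2 scale, moved the median of the members to -1.84 and that of the 79 other replication genes to -0.81. It also turned the background from more lower than higher genes to 15.5% lower and 25.9% higher, and left 46 members lower. Centring, a shift of 0.21, gave a background of 19.4% lower and 21.1% higher, and 47 members lower. Of the other replication genes, 3 were higher in MT at a fold of 2 (background 7.64%) and 14 by intervals beyond 0 (background 33%).

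In si-hnRNPL the number of lower members was 0 at a fold of 2, 17 after rescaling to the same sum and 41 by intervals beyond 0, against 10. For the other replication genes it was 15 with a pseudocount of 0.1 and also with 0.01, 0 at a fold of 2, 15 after rescaling, 45 by intervals (with 5 higher) and 5 (of 74 genes with a value) after exon length and GC content, against 8. Backgrounds for si-hnRNPL were 1.67% lower after rescaling and 0.142% at a fold of 2. With pseudocounts of 0.1 and 0.01 they were 1.7% and 1.78% lower. By intervals they were 26.6% lower and 20.9% higher, and after exon length and GC content 0.604% lower. No paired analysis was possible because each condition has 1 library, and for the same reason no library could be left out. At the depth of si-hnRNPL the half-width of the interval exceeded the change of 7 members.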
